A study of Mus musculus with 4 samples.

Results

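Aminoacyl-tRNA synthetases are the enzymes that join each amino acid to its transfer RNA (tRNA) before translation. This account covers the nuclear genes for the cytosolic and the mitochondrial enzymes in the tibialis anterior (TA), a fast limb muscle of the mouse. Members were taken by name: 20 cytosolic and 16 mitochondrial synthetase genes, 36 in all, out of 18959 gene names above 0 in at least 1 library. All 36 had a row above 0, none had a second copy of its row, and all 36 passed the filter on low values used for testing.

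RNA sequencing libraries were made from C57BL/6 mice at postnatal day 21, with 2 libraries per group. The Het group was Nf1flox/+/Myf5+(Het), with 1 floxed and 1 normal allele of Nf1, and the Nf1-KO group was Nf1flox/flox/Myf5+(KO), with both alleles floxed. Nf1 encodes neurofibromin, a protein that switches Ras off. Both groups carry a floxed allele and the Myf5 allele, and no wild-type muscle was compared. Myf5+ in a cross of this kind usually stands for a Cre driver active in muscle precursors; the labels do not name a Cre, and recombination in each cell type was not measured. The labels do not say whether the 2 libraries of a group came from separate animals, so the tests measure the spread between these libraries, which may be technical.

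Each enzyme recognises 1 amino acid and its tRNAs, and the enzymes fall into class I and class II by the fold of their catalytic domain. Several cytosolic enzymes are held together in the multisynthetase complex by the scaffold proteins Aimp1, Aimp2 and Eef1e1. Mitochondria translate their own few messages for respiratory chain subunits with a separate set of synthetases, which are encoded in the nucleus and imported. Kars and Gars each give both a cytosolic and a mitochondrial enzyme from 1 gene. Many cytosolic synthetase genes are known targets of Atf4, a transcription factor of the amino acid and integrated stress responses.

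Promoter sequences are shown because the cytosolic genes that fell include known Atf4 targets, and the letters that Atf4 is known to bind can be looked for. RefSeq promoter windows (build GRCm38.p6, 250 bases before to 50 after a gene's start, 300 bases in all) were matched for 27 of the 36 members, 13 cytosolic and 14 mitochondrial. The element TGATGNAA, searched on both strands, was found in 5 of the 13 cytosolic windows (Aars, Gars, Iars, Tars and Yars) and in 0 of the 14 mitochondrial ones. It occurs in 3.97% of all 32851 promoter windows of that length. A match of each gene is printed 5′ to 3′ on the strand of the gene with 10 bases on each side, and capitals mark the 8 matching letters. The windows of Tars, Iars and Gars were added after the search because they hold the element.
Aars, chr8:111033841-111033868, plus strand: gcgggtcactTTTCATCAgagcgctctg
Yars, chr4:129189896-129189923, plus strand: cgagctcagcTGATGCAAcccgacggga
Tars, chr15:11399656-11399683, minus strand: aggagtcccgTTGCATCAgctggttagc
Iars, chr13:49682127-49682154, plus strand: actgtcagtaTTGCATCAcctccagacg
Gars, chr6:55037961-55037988, plus strand: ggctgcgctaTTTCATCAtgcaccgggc

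The Aars match shown began 9 bases after the RefSeq start. The Yars match began 3 bases after its start, the Iars match 7 bases after, the Tars match 15 bases before and the Gars match 30 bases before. Of these 5 genes, Aars, Yars and Tars fell in Nf1-KO muscle, and Iars and Gars did not pass the test. Mars and Sars also fell, and their windows did not hold the element. Neither did those of Eprs and Kars, which rose. Hars and Vars fell too, but no window was matched for them, so they were not searched.

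The element of Nrf1, a factor known for mitochondrial and housekeeping genes, was searched on both strands by its consensus of 10 letters. It was found in 3 cytosolic windows (Farsb, Kars and Tars) and 2 mitochondrial windows (Iars2 and Mars2), against 4.60% of all windows. Of these 5 genes, Kars and Mars2 rose, Tars fell, and Farsb and Iars2 were not called. A match of each of the 5 is shown, the 1 nearer the start for Tars, which has 2, with the matching 10 letters in capitals.
Kars, chr8:112011384-112011413, minus strand: gcccagcactGCGCCTGCGCagcgagagtc
Mars2, chr1:55237169-55237198, plus strand: ccgtccagctGCGCACGCGCcctttcccgt
Tars, chr15:11399614-11399643, minus strand: tggccacgtgGCGCACGCGCagtgcggaat
Farsb, chr1:78488850-78488879, minus strand: cccgcatgtgGCGCAGGCGCagtgtccacg
Iars2, chr1:185329374-185329403, minus strand: ccgccccggaGCGCGTGCGCagttcctcgc

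The Kars match began 49 bases before the start and the Mars2 match 2 bases after it. The Gabpa element CCGGAAGT was found in Farsa, Mars and Rars2 (3.89% of all windows), and the ERR element AAGGTCA in 0 of the 27 member windows (4.72% of all). No match overlapped another. A match is a run of letters and not a measured binding site, and none of these libraries measured binding.

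Values are RPKM, reads scaled by gene length and library depth, as deposited; the unit was read from the values. Levels spanned a wide range. In Het muscle the cytosolic members ran from 3.4 RPKM (Farsa, a subunit of the phenylalanyl enzyme) to 39.4 RPKM (Kars, the lysyl enzyme), with a median of 14.9. The mitochondrial members ran from 1.135 RPKM (Ears2, glutamyl) to 12.98 RPKM (Fars2, phenylalanyl), apart from Lars2 (leucyl) at 197.9, and their median was 4.11. In descending order of the Het mean, the cytosolic genes stood as Kars, Nars, Eprs, Aars, Gars, Dars, Mars, Iars, Farsb, Rars, Qars, Sars, Yars, Tars, Wars, Lars, Hars, Cars, Vars and Farsa. The mitochondrial genes stood as Lars2, Fars2, Iars2, Cars2, Rars2, Sars2, Aars2, Hars2, Yars2, Vars2, Tars2, Mars2, Nars2, Wars2, Pars2 and Ears2. Among neighbours in the order over all 36 members, the Het values overlapped for Qars and Sars, for the run of Fars2, Yars, Tars, Iars2 and Wars, for Nars2 and Wars2, and for Pars2 and Ears2.

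**Figure D1:**
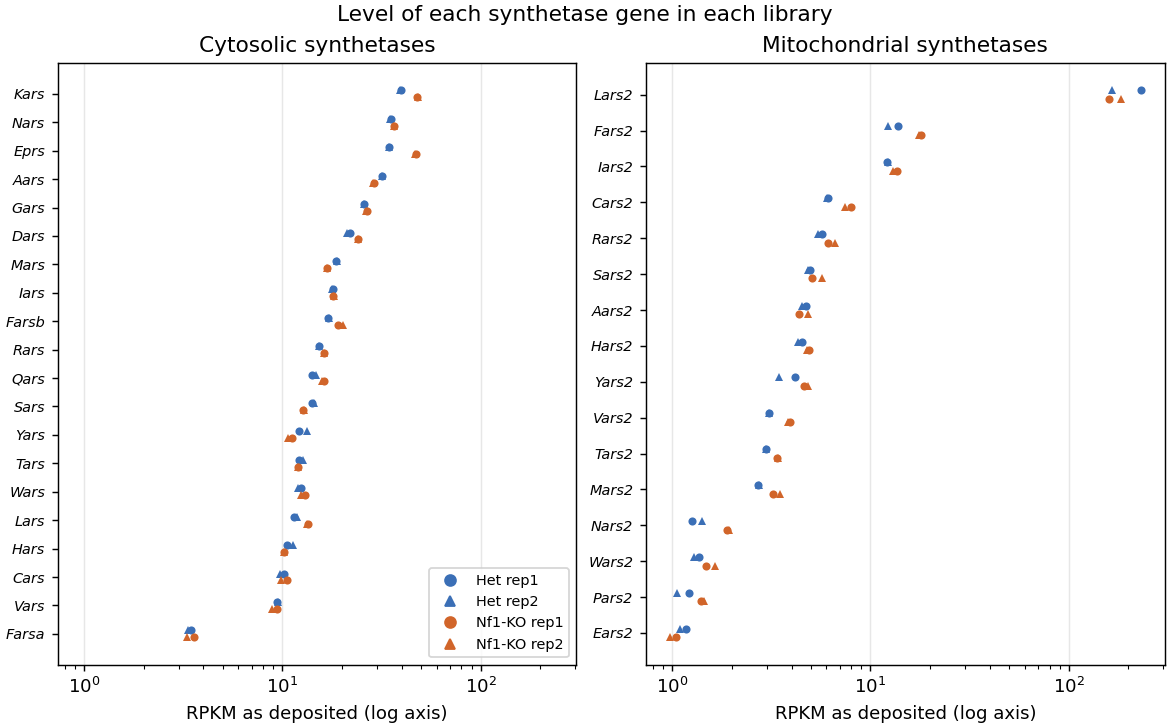
RPKM as deposited (log axis) of each synthetase gene in each of the 4 libraries, cytosolic genes on the left and mitochondrial genes on the right, ordered by the Het mean. Circles are replicate 1 and triangles replicate 2, in blue for Het and orange for Nf1-KO. Lars2 lies far above the other mitochondrial genes, whose Het means end at 12.98 RPKM.

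Nf1, the targeted gene, was listed at 1.09 and 1.01 RPKM in Het and at 0.89 and 0.85 RPKM in Nf1-KO. Both Nf1-KO values lay below both Het values. The log2 difference was -0.18 (SE 0.057, limma adjusted p = 0.043), a call lost in every fit that left out 1 library. That difference is on the log2(RPKM + 1) scale, which understates the change of a low gene. The ratio of the scaled values was 0.779, and the authors' deposited table gave Nf1 a log2 change of -0.38 (adjusted p = 0.0026). The labels do not give the floxed exons, so the remaining signal cannot be divided between cells with and without the allele. Of 7 muscle fibre genes, all 7 were above 0 in every library (Acta1, skeletal actin, at 12305 to 15930 RPKM) and 1 was higher and 6 were lower in Nf1-KO. The sum of 10 immune cell genes was 13.5 and 13.0 RPKM in Het and 35.2 in both Nf1-KO libraries. Of these, Adgre1 was listed at 0 in every library and 5 of 5 tested genes rose. The sum of 8 Schwann cell genes was 16.1 and 16.6 against 37.4 and 35.6 RPKM (7 of 7 tested rose), and that of 6 fibroblast and tendon genes 72.7 and 70.3 against 107.6 and 107.2 RPKM (4 of 5 tested rose and 1 fell). The 6 adipocyte genes summed to 178.7 and 185.5 against 269.0 and 266.9 RPKM (3 of 4 tested rose). Most of that sum was Fabp4 (170.60 and 176.29 against 249.39 and 246.76 RPKM). Adipoq (1.11 and 1.31 against 0.95 and 1.05 RPKM, not called) and Lep (0.21 and 0.22 against 0.03 and 0.05 RPKM, below the filter) were lower in Nf1-KO. The 6 endothelial genes summed to 78.55 and 79.0 against 84.5 and 83.3 RPKM (2 rose and 2 fell of 6 tested), and the 5 satellite cell genes to 8.42 and 8.26 against 9.91 and 9.65 RPKM (2 of 4 tested rose). The blood genes summed to 1.37 to 1.78 RPKM over the libraries, with Hbb-b1, Hbb-bs and Hbb-bt listed at 0, and the 1 tested was not called. These sums are of RPKM as deposited, without the scaling described below, which the calls use. For all genes tested, 25.3% were called higher and 24.9% lower. The part of these cell types in the synthetase results was not tested. In whole muscle, fewer cells of a type and less RNA per cell cannot be told apart.

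The comparison asked whether synthetase RNA differs between muscle with both and with 1 Nf1 allele floxed. The RPKM of each library were first scaled to a common middle (factors 0.971 and 0.969 for Het, 1.03 for both Nf1-KO libraries), and log2(RPKM + 1) was compared with limma, with p-values adjusted by Benjamini-Hochberg over 10690 genes and a threshold of 0.05. Fold changes on this scale understate the change of low genes. Among the 36 members, 7 rose, 7 fell and 22 did not pass, and the median log2 difference was 0.03. Over all genes tested, 25.3% were called higher and 24.9% lower, 50.2% in either direction, with a median log2 difference of 0.005. The members were called in 14 of 36 cases, a smaller share than that background.

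By compartment, of the 20 cytosolic genes, 2 rose (Eprs and Kars), 7 fell (Yars, Mars, Sars, Aars, Hars, Tars and Vars) and 11 did not pass, with a median of -0.045. Of the 16 mitochondrial genes, 5 rose (Fars2, Nars2, Cars2, Vars2 and Mars2) and 11 did not pass, with a median of 0.094. With limma 0 mitochondrial genes fell, 0 also at an unadjusted p under 0.05 and 0 in the authors' deposited table. A difference between the compartments was not tested. The scaling bears on these counts. With the RPKM taken as deposited, the median of all genes moved to 0.07, the cytosolic genes gave 6 higher and 4 lower with a median of 0.036, and the mitochondrial genes gave 9 higher. Then 35.2% of all genes were called higher and 17.6% lower. Leaving out Het replicate 2 gave 4 cytosolic genes lower, and leaving out Het replicate 1, Het replicate 2 or Nf1-KO replicate 1 each gave 3 mitochondrial genes higher. Without Het replicate 2, 1 mitochondrial gene, Lars2, was called lower.

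**Figure D2:**
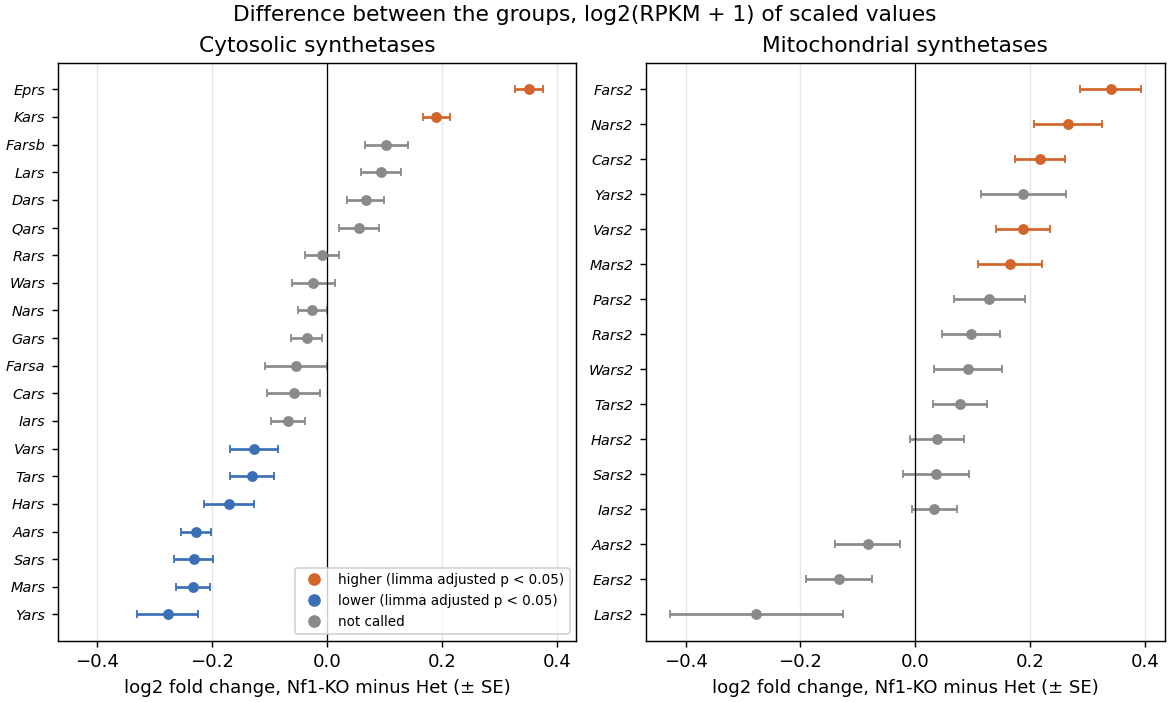
Log2 difference between Nf1-KO and Het for each synthetase gene on the log2(RPKM + 1) scale of scaled values, with bars for 1 SE and 2 libraries per group. Orange genes were called higher and blue genes lower (limma adjusted p under 0.05), and grey genes were not called. The cytosolic genes ran from -0.28 (Yars) to 0.35 (Eprs) and the mitochondrial genes from -0.28 (Lars2, with the widest bar) to 0.34 (Fars2).

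Within the cytosolic set, 8 genes code for enzymes of the multisynthetase complex. Of these, 2 rose, 1 fell (Mars) and 5 did not pass, with a median of 0.061. The 12 genes outside the complex gave 6 lower and 6 not called, with a median of -0.092; with limma 0 rose, 1 at an unadjusted p under 0.05 (the authors' deposited table also called 0 higher). With the values not scaled, the complex gave 5 higher and 1 lower with a median of 0.145, and the genes outside it 1 higher (Farsb) and 3 lower (Yars, Sars and Aars) with a median of -0.016. Class I gave 1 higher (Eprs) and 3 lower of 10 cytosolic genes, and class II 1 higher (Kars) and 4 lower of 10. Eprs joins a glutamyl and a prolyl enzyme and was counted in class I only, while the mitochondrial prolyl enzyme Pars2 was counted in class II. In mitochondria, class I gave 3 higher of 9 and class II 2 higher of 7. The shares over all genes tested were 25.3% higher and 24.9% lower, and 35.2% and 17.6% with the values not scaled. Differences between these groups of genes were not tested.

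Eprs codes for the fused glutamyl and prolyl synthetase, the one cytosolic enzyme that serves a pair of amino acids. It was measured at 34.48 and 34.40 RPKM in Het (34.4 ± 0.057, SD, n = 2) and at 47.33 and 46.66 RPKM in Nf1-KO (47.0 ± 0.47, SD, n = 2). Both Nf1-KO libraries lay well above both Het libraries. On the scaled values it was 1.28-fold higher, a log2 difference of 0.35 (SE 0.024, limma adjusted p = 8.4e-05), the highest of any member on the log2(RPKM + 1) scale. The gene lies at chr1:185363044-185428360 (GENCODE M21, GRCm38, as for all gene positions here).

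Kars, the lysyl enzyme of both compartments (chr8:111993443-112011323), stood at 39.69 and 39.12 RPKM in Het (39.4 ± 0.40, SD, n = 2) and 47.61 and 48.28 RPKM in Nf1-KO (47.95 ± 0.47, SD, n = 2). The groups did not overlap. The scaled ratio was 1.14 and the log2 difference 0.19 (SE 0.024, limma adjusted p = 0.0011). Eprs and Kars were also the 2 cytosolic members called higher in the authors' deposited table, at log2 changes of 0.34 and 0.18.

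Yars, the tyrosyl enzyme (chr4:129189760-129219607), had the lowest value of the cytosolic differences. It was measured at 12.07 and 13.28 RPKM in Het (12.68 ± 0.86, SD, n = 2) and 11.20 and 10.65 RPKM in Nf1-KO (10.93 ± 0.39, SD, n = 2), with the Het libraries apart from each other by more than the Nf1-KO ones. The log2 difference was -0.28 (SE 0.053, limma adjusted p = 0.006), or 0.81 of Het on the scaled values. In the annotation its exons overlap those of C77080, and strand use in the authors' counting is not given in the sources used here, so reads of overlapping genes may be shared.

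Mars, the methionyl enzyme of the complex (chr10:127296221-127311786), was at 18.62 and 18.89 RPKM in Het (18.76 ± 0.19, SD, n = 2) and 16.74 and 16.88 RPKM in Nf1-KO (16.81 ± 0.099, SD, n = 2). The 2 groups were each tight and apart, with a log2 difference of -0.23 (SE 0.03, limma adjusted p = 0.0011). Its exons overlap the antisense gene Ddit3, a stress factor, by a short stretch: 33 runs of 31 bases are shared. Ddit3 itself was at 13.34 and 11.19 RPKM in Het and 11.33 and 12.23 RPKM in Nf1-KO, overlapping between the groups.

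Sars, the seryl enzyme (chr3:108424865-108445209), was at 14.13 and 14.52 RPKM in Het (14.3 ± 0.28, SD, n = 2) and 12.71 and 12.93 RPKM in Nf1-KO (12.82 ± 0.16, SD, n = 2). The groups did not overlap, and the log2 difference was -0.23 (SE 0.034, limma adjusted p = 0.0019). Aars, the alanyl enzyme whose match is shown above (chr8:111033144-111057664), was at 31.99 and 31.74 RPKM in Het (31.9 ± 0.18, SD, n = 2) and 28.95 and 28.60 RPKM in Nf1-KO (28.8 ± 0.25, SD, n = 2). It was therefore 0.849 of Het after scaling, a log2 difference of -0.23 (SE 0.026, limma adjusted p = 0.00066). Exosc6, an exosome subunit gene on the same strand, shares 22.7% of the 31-base runs of the Aars exons and was listed at 1.69 and 1.83 RPKM in Het and 1.30 and 1.62 RPKM in Nf1-KO.

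Hars, Tars and Vars fell by less, and their calls were less stable. Hars, the histidyl enzyme, was at 10.57 and 11.32 RPKM in Het (10.95 ± 0.53, SD, n = 2) and 10.21 and 10.22 RPKM in Nf1-KO (10.21 ± 0.0071, SD, n = 2). The groups did not overlap; the log2 difference was -0.17 (SE 0.043, limma adjusted p = 0.017, and 0.075 without Het replicate 2). Hars and its mitochondrial counterpart Hars2 lie on opposite strands and overlap at their 5′ ends, with annotated starts 197 bases apart. Their exons overlap there, and the 2 genes have 165 shared runs of 31 bases, so reads may be shared between them. Tars, the threonyl enzyme (chr15:11382301-11399665), was at 12.11 and 12.78 RPKM in Het (12.45 ± 0.47, SD, n = 2) and 11.97 and 12.01 RPKM in Nf1-KO (11.99 ± 0.028, SD, n = 2). Its groups were separated by less than the gap between the Het libraries, with a log2 difference of -0.13 (SE 0.039, limma adjusted p = 0.031). The limma adjusted p of Tars was 0.13 without Het replicate 2, 0.086 without Nf1-KO replicate 1 and 0.08 without Nf1-KO replicate 2. Vars, the valyl enzyme (chr17:35000987-35016322), was at 9.36 and 9.48 RPKM in Het (9.42 ± 0.085, SD, n = 2) and 9.36 and 8.82 RPKM in Nf1-KO (9.09 ± 0.38, SD, n = 2). As deposited its groups touched at 9.36 RPKM, and the call (log2 difference -0.13, SE 0.042, limma adjusted p = 0.045) rests on the scaling. The limma adjusted p of Vars was 0.11 without Het replicate 1, 0.14 without Het replicate 2 and 0.23 without Nf1-KO replicate 2. With the values not scaled, Hars (limma adjusted p = 0.12), Tars (0.32) and Vars (0.38) were not called.

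The 11 cytosolic genes that did not pass had log2 differences from -0.068 to 0.103. In the complex, Iars (isoleucyl) was at 17.90 to 18.01 RPKM in Het and 18.06 to 18.29 in Nf1-KO, with a log2 difference of -0.07. Lars (leucyl) was at 11.47 and 11.89 against 13.40 and 13.26 RPKM (log2 difference 0.09, limma adjusted p = 0.067). Qars (glutaminyl) was at 14.19 and 14.82 against 16.19 and 15.94 RPKM (0.055 on the log2 scale). Dars (aspartyl) was at 22 and 21.09 against 23.94 and 24.14 RPKM (0.07), and Rars (arginyl) at 15.37 and 15.30 against 16.15 and 16.24 RPKM (-0.009). In all of these genes of the complex, the Nf1-KO libraries lay above the Het libraries as deposited. The scaling narrowed the gap for Lars, Qars and Dars, which were called higher without it. For Iars and Rars the scaling put both Nf1-KO libraries below both Het libraries.

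Outside the complex, Farsa and Farsb code for the catalytic and the other subunit of the same phenylalanyl enzyme. Farsa was at 3.46 and 3.34 RPKM in Het and 3.58 and 3.31 in Nf1-KO, and Farsb was at 16.95 and 17.19 RPKM in Het and 18.99 and 20.18 in Nf1-KO. The Farsa groups overlapped and the Farsb groups did not, but neither difference passed (log2 -0.055, limma adjusted p = 0.44, and log2 0.10, limma adjusted p = 0.061). Farsb was called higher with the values not scaled. Gars, the glycyl enzyme of both compartments, was at 25.79 and 25.69 RPKM in Het and 26.85 and 26.50 RPKM in Nf1-KO (log2 difference -0.04, limma adjusted p = 0.31). Nars (asparaginyl) was at 35.33 and 34.72 against 36.50 and 36.65 RPKM, with a log2 difference of -0.03. The groups of Cars (cysteinyl, 10.20 and 9.77 against 10.51 and 9.82 RPKM) overlapped, with a log2 difference of -0.06. The groups of Wars (tryptophanyl, 12.39 and 11.94 against 12.95 and 12.47 RPKM) did not overlap as deposited but were closer than the libraries of each group, with a log2 difference of -0.02. Without scaling, the small negative differences of Iars, Rars, Cars, Wars, Farsa, Gars and Nars became positive.

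Fars2, the mitochondrial phenylalanyl enzyme (chr13:36117412-36726280), had the highest log2 difference of the mitochondrial genes on the log2(RPKM + 1) scale; by ratio, and with a pseudocount of 0.1 (0.408 against 0.36), Nars2 stood above it. It was at 13.73 and 12.24 RPKM in Het (12.98 ± 1.05, SD, n = 2) and 17.89 and 17.56 RPKM in Nf1-KO (17.73 ± 0.23, SD, n = 2). The Nf1-KO libraries lay above both Het libraries, which differed from each other more than the Nf1-KO libraries did. On the scaled values it was 1.28-fold higher, with a log2 difference of 0.34 (SE 0.053, limma adjusted p = 0.0027). Its exons overlap those of Lyrm4 and Nrn1 in the annotation. Fars2 was the one mitochondrial member called in the authors' deposited table (log2 change 0.35).

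Nars2, the asparaginyl enzyme (chr7:96951505-97064758), was at 1.26 and 1.41 RPKM in Het (1.335 ± 0.11, SD, n = 2) and 1.89 and 1.94 RPKM in Nf1-KO (1.915 ± 0.035, SD, n = 2). The groups did not overlap, and the scaled ratio of 1.35 was the largest of any member. The log2 difference on the log2(RPKM + 1) scale was 0.27 (SE 0.059, limma adjusted p = 0.011, and 0.052 without Het replicate 1). The authors' deposited table gave Nars2 a log2 change of 0.405 with an adjusted p of 0.053. The exons of Nars2 overlap those of C230038L03Rik, with 254 shared runs of 31 bases.

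Cars2, the cysteinyl enzyme (chr8:11513977-11550783), was at 6.13 and 6.07 RPKM in Het (6.10 ± 0.042, SD, n = 2) and 7.94 and 7.48 RPKM in Nf1-KO (7.71 ± 0.33, SD, n = 2). Its log2 difference was 0.22 (SE 0.044, limma adjusted p = 0.0079). In the annotation its exons overlap those of Naxd, and 7.44% of its 31-base runs occur in other genes. Vars2, the valyl enzyme (chr17:35655634-35667592), was at 3.08 RPKM in both Het libraries and 3.93 and 3.82 RPKM in Nf1-KO (3.875 ± 0.078, SD, n = 2). The groups of both genes were apart, and the Vars2 log2 difference was 0.19 (SE 0.047, limma adjusted p = 0.017). The exons of Vars2 overlap those of Gm20483, with 215 shared runs of 31 bases. The limma adjusted p of Vars2 was 0.066 without Het replicate 1, 0.059 without Het replicate 2 and 0.093 without Nf1-KO replicate 1. Mars2, the methionyl enzyme (chr1:55237177-55248470), was at 2.70 and 2.73 RPKM in Het (2.715 ± 0.021, SD, n = 2) and 3.22 and 3.51 RPKM in Nf1-KO (3.365 ± 0.21, SD, n = 2). The groups did not overlap; the log2 difference was 0.165 (SE 0.055, limma adjusted p = 0.046), and leaving out any 1 library gave a limma adjusted p from 0.05 to 0.24, none of which passed.

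Lars2, the mitochondrial leucyl enzyme (chr9:123366927-123462666), stood apart from every other member in level and in spread. It was listed at 231.38 and 164.36 RPKM in Het (197.9 ± 47.4, SD, n = 2) and 159.68 and 183.23 RPKM in Nf1-KO (171.5 ± 16.7, SD, n = 2). The groups overlapped, and the 2 Het libraries differed from each other by more than the group means did. The log2 difference was -0.28 (SE 0.151, limma adjusted p = 0.18), and -0.52 without Het replicate 2 (limma adjusted p = 0.0041). Its coefficient of variation within groups was 18.3%, against 0.359% to 9.25% for the other members, although its mean normalized count of 34104 in the authors' deposited table would allow a counting error of 0.541%. Rn45s, the row of the 45S precursor of ribosomal RNA, was examined after this spread was seen. It was at 4945.93 and 3857.00 RPKM in Het and 3361.50 and 4351.02 RPKM in Nf1-KO, in the same order of libraries as Lars2. Lars2 was 4.68% and 4.26% of Rn45s in Het and 4.75% and 4.21% in Nf1-KO. Whether one row bears on the other was not tested.

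**Figure D3:**
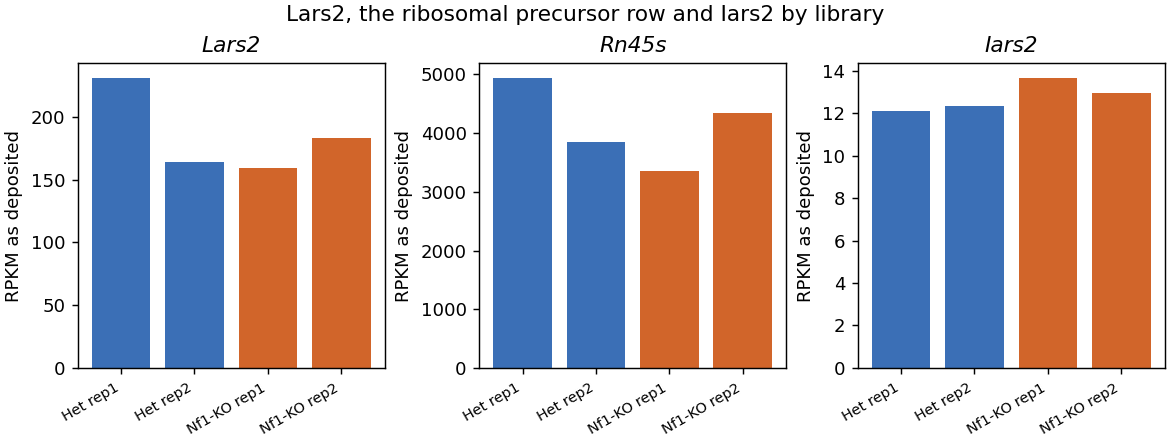
RPKM as deposited of Lars2 (left), the 45S ribosomal precursor row Rn45s (middle) and Iars2, the mitochondrial isoleucyl enzyme (right), as bars from 0 for each library. Lars2 and Rn45s share the order of the libraries, with Het replicate 1 the highest and Nf1-KO replicate 1 the lowest, whereas Iars2 ran from 12.12 to 13.67 RPKM.

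The other 10 mitochondrial genes that did not pass had log2 differences from -0.133 (Ears2) to 0.188 (Yars2). Yars2 (tyrosyl) was at 4.15 and 3.47 against 4.63 and 4.86 RPKM, with Het libraries far apart (log2 difference 0.19, limma adjusted p = 0.079). Pars2 (prolyl) was at 1.22 and 1.06 against 1.40 and 1.44 RPKM (0.13 on the log2 scale), and Rars2 (arginyl) at 5.67 and 5.42 against 6.14 and 6.62 RPKM (0.10). In these 3 genes both Nf1-KO libraries lay above both Het libraries as deposited, as they did in 49.8% of all genes tested. The same was true of Wars2 (tryptophanyl, 1.36 and 1.29 against 1.49 and 1.65 RPKM), Tars2 (threonyl, 2.98 and 2.96 against 3.38 and 3.4 RPKM), Hars2 (4.52 and 4.30 against 4.92 and 4.76 RPKM), Sars2 (seryl, 4.98 and 4.82 against 5.08 and 5.67 RPKM) and Iars2 (12.12 and 12.31 against 13.67 and 12.96 RPKM). After scaling, the groups of Hars2, Sars2 and Iars2 overlapped. Ears2 was at 1.17 and 1.10 against 1.05 and 0.97 RPKM, the one mitochondrial gene with both Nf1-KO values below both Het values as deposited. Its log2 difference of -0.13 did not pass (limma adjusted p = 0.10). The groups of Aars2 (alanyl, 4.72 and 4.53 against 4.36 and 4.82 RPKM) overlapped as deposited. After scaling, both Nf1-KO values of Aars2 also lay below both Het values (log2 difference -0.083, limma adjusted p = 0.26). Iars2 shares 36.8% of its 31-base exon runs with the overlapping gene Rab3gap2, so its value is uncertain.

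For 16 amino acid pairs the mitochondrial gene can be divided by its cytosolic counterpart within each library, a ratio on which the scaling has no effect. In 14 of the 16 the mitochondrial gene was the lower one in all 4 libraries; the exceptions were Fars2 over Farsa and Lars2 over Lars. The Fars2 exception depends on the subunit chosen as its partner. Against Farsb, the other subunit, Fars2 was lower in all 4 libraries (13.73, 12.24, 17.89 and 17.56 against 16.95, 17.19, 18.99 and 20.18 RPKM). The ratio was higher in both Nf1-KO libraries than in both Het libraries for 13 pairs, lower for 1 and overlapping for 2. Among single genes, 49.8% had both Nf1-KO values above both Het values as deposited and 27.4% had both below. Those shares are for single values, which the scaling moves, so they are not a like background for ratios. No share was computed for ratios of other gene pairs. The pairs were given no test, and Eprs serves in 2 of them.

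In 2 pairs, Mars2 over Mars and Vars2 over Vars, both members were called, in opposite directions. Yars2 over Yars was 0.344 and 0.261 in Het and 0.413 and 0.456 in Nf1-KO. Mars2 over Mars was 0.145 in both Het libraries and 0.192 and 0.208 in Nf1-KO. Vars2 over Vars was 0.329 and 0.325 against 0.420 and 0.433. Yars2 was not called, and the Vars values of the groups touched as deposited. Nars2 over Nars (0.0357 and 0.0406 against 0.0518 and 0.0529) and Cars2 over Cars (0.601 and 0.621 against 0.755 and 0.762) were higher in Nf1-KO beside a cytosolic gene that was not called. Fars2 over Farsa went from 3.97 and 3.66 to 5.0 and 5.31. The pair that was lower was Ears2 over Eprs, at 0.0339 and 0.0320 in Het and 0.0222 and 0.0208 in Nf1-KO, in which Eprs had risen.

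The remaining higher pairs differed by less. Sars2 over Sars was 0.352 and 0.332 against 0.400 and 0.439, Tars2 over Tars 0.246 and 0.232 against 0.282 and 0.283, and Hars2 over Hars 0.428 and 0.380 against 0.482 and 0.466. Wars2 over Wars (0.110 and 0.108 against 0.115 and 0.132), Aars2 over Aars (0.148 and 0.143 against 0.151 and 0.169), Rars2 over Rars (0.369 and 0.354 against 0.380 and 0.408) and Iars2 over Iars (0.673 and 0.688 against 0.757 and 0.709) had gaps between the groups that were small beside the spread within them. The following sums are of RPKM as deposited. For the 20 cytosolic genes the sum was 368.2 and 369.2 in Het and 393.2 and 391.9 in Nf1-KO. Dividing by the scaling factors (0.971 and 0.969 for Het, 1.03 for both Nf1-KO libraries) raises the Het sums and lowers the Nf1-KO sums. The cytosolic gap is therefore not read as a rise. The mitochondrial sum without Lars2 was 69.8 and 66.8 in Het and 81.0 and 81.5 in Nf1-KO, or 19.0% and 18.1% of the cytosolic sum in Het and 20.6% and 20.8% in Nf1-KO.

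**Figure D4:**
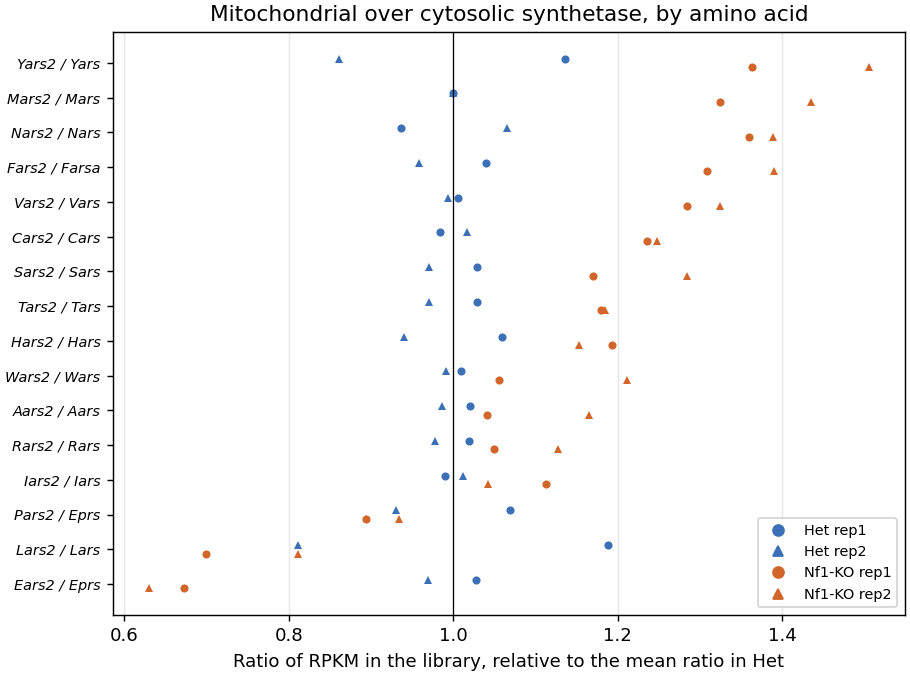
Ratio of the mitochondrial to the cytosolic RPKM of the same amino acid in each library, divided by the mean ratio in Het, for 16 pairs. Circles are replicate 1 and triangles replicate 2, in blue for Het and orange for Nf1-KO; the line at 1 is the Het mean. Both Nf1-KO libraries lie to the right of both Het libraries in 13 pairs and to the left in 1, Ears2 over Eprs.

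Genes that work beside the synthetases were followed as a list. Of 7 such genes, 3 fell and 4 did not pass, against 24.9% lower and 25.3% higher over all genes tested. With limma 0 of the 7 rose, 0 also at an unadjusted p under 0.05. With the values not scaled, 1 rose (Aarsd1) and 1 fell (Aimp2). Aimp2, the scaffold protein of the multisynthetase complex, was at 65.22 and 63.00 RPKM in Het and 33.31 and 33.90 RPKM in Nf1-KO. Both Nf1-KO values were far below both Het values, a scaled ratio of 0.493 and a log2 difference of -0.999 (SE 0.027, limma adjusted p = 2.1e-06). The authors' deposited table gave a log2 change of -1.04 (adjusted p = 1.2e-72). Aimp2 overlaps Eif2ak1, a kinase of the integrated stress response, on the opposite strand, and shares 39.65% of its 1155 runs of 31 bases with it. Eif2ak1 itself was at 11.64 RPKM in both Het libraries and 10.45 and 11.33 RPKM in Nf1-KO, a level well below that of Aimp2.

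Aimp1, another scaffold protein, was at 43.26 and 45.37 against 42.50 and 42.84 RPKM (log2 difference -0.14, SE 0.031, limma adjusted p = 0.01), a call lost with the values not scaled (log2 difference -0.053, limma adjusted p = 0.19). Tarsl2, a threonyl enzyme related to Tars, was at 24.52 and 24.80 against 24.27 and 24.70 RPKM (log2 difference -0.095, SE 0.028, limma adjusted p = 0.03), with groups that overlapped as deposited and a call lost in every fit that left out 1 library. Eef1e1, also a scaffold protein of the complex, was at 5.85 and 6.65 against 6.88 and 8.01 RPKM, and its difference of 0.14 on the log2 scale did not pass (limma adjusted p = 0.19). Of these 3 scaffold genes, 2 fell and 1 did not pass; with the values not scaled, Aimp2 was the 1 called lower. The editing factors Aarsd1 (0.007), Prorsd1 (-0.09) and Dtd1 (-0.13 on the log2 scale) were not called.

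Of 15 tested genes for the processing and modification of mitochondrial tRNA, 5 rose and 1 fell, with a median log2 difference of 0.048. The shares over all genes, for this list and the next, were 25.3% higher and 24.9% lower. Hsd17b10, a subunit of mitochondrial RNase P, was at 39.23 and 40.52 against 60.48 and 59.03 RPKM (log2 0.485, limma adjusted p = 4.1e-05). Trmu, which thiolates mitochondrial tRNA, was at 2.74 and 2.59 against 3.97 and 3.81 RPKM (log2 0.35, limma adjusted p = 0.0021), and Cdk5rap1, another modifying enzyme, was at 3.16 and 3.04 against 4.32 and 4.44 RPKM (log2 0.32, limma adjusted p = 0.0021). Gatc, a subunit of the enzyme that makes glutaminyl-tRNA in mitochondria in place of a glutaminyl synthetase, was at 18.10 and 17.37 against 15.57 and 15.60 RPKM (log2 -0.26, limma adjusted p = 0.0011). The groups of these 4 genes did not overlap. Of 10 tested genes for general mitochondrial content, 6 rose and 1 fell, with a median of 0.158, above the mitochondrial synthetase median of 0.094. They included Sdha, a subunit of respiratory complex II (log2 0.49), and Cs, citrate synthase (log2 0.33), and the difference between the medians was not tested.

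Of 20 tested genes of Atf4 and its targets, 8 rose and 5 fell, with a median of 0.073. Over all genes tested, 25.3% were called higher and 24.9% lower. The list held 25 genes, and those below the filter were not tested. Atf4 itself was at 57.11 and 56.49 RPKM in Het and 74.93 and 72.65 RPKM in Nf1-KO (log2 0.28, SE 0.025, limma adjusted p = 0.00024). Ddit4, an inhibitor of mTORC1 signalling, was at 21.76 and 20.39 against 41.52 and 43.64 RPKM (log2 0.90), Cth, an enzyme of cysteine synthesis, at 1.05 and 1.02 against 2.86 and 2.63 RPKM (log2 0.82), and Got1, the cytosolic aspartate aminotransferase, at 213.24 and 212.63 against 399.91 and 399.03 RPKM (log2 0.82). Vldlr, a lipoprotein receptor, went the other way, from 62.19 and 62.06 to 36.80 and 36.60 RPKM (log2 -0.83). The other genes of the list that fell were Chac1, Psph, Mthfd2 and Aldh18a1, with log2 differences from -0.747 (Chac1) to -0.269 (Mthfd2). These log2 differences are on the log2(RPKM + 1) scale, and the ratios of scaled values ranked the genes otherwise. By ratio, Aldh18a1 (0.488) stood below Chac1 (0.588), Mthfd2 (0.662) below Psph (0.696), and Cth (2.494) above Got1 (1.764). Atf4 protein was not measured.

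Wars is known to be induced by interferon, and 12 interferon response genes were read beside it. Of these, 6 fell and 6 did not pass, with a median of -0.313. With limma 0 rose, 0 also at an unadjusted p under 0.05. Among all genes tested, 24.9% were called lower and 25.3% higher. B2m, the light chain of class I histocompatibility molecules, was at 59.44 and 60.45 against 34.43 and 38.43 RPKM (log2 -0.79), and Ifit3, an antiviral gene, at 1.78 and 1.90 against 1.03 and 0.80 RPKM (log2 -0.62). The guanylate-binding protein genes Gbp2 and Gbp3 fell by 0.44 and 0.36 on the log2 scale. Wars had a log2 difference of -0.02, with a limma adjusted p of 0.63.

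**Figure D5:**
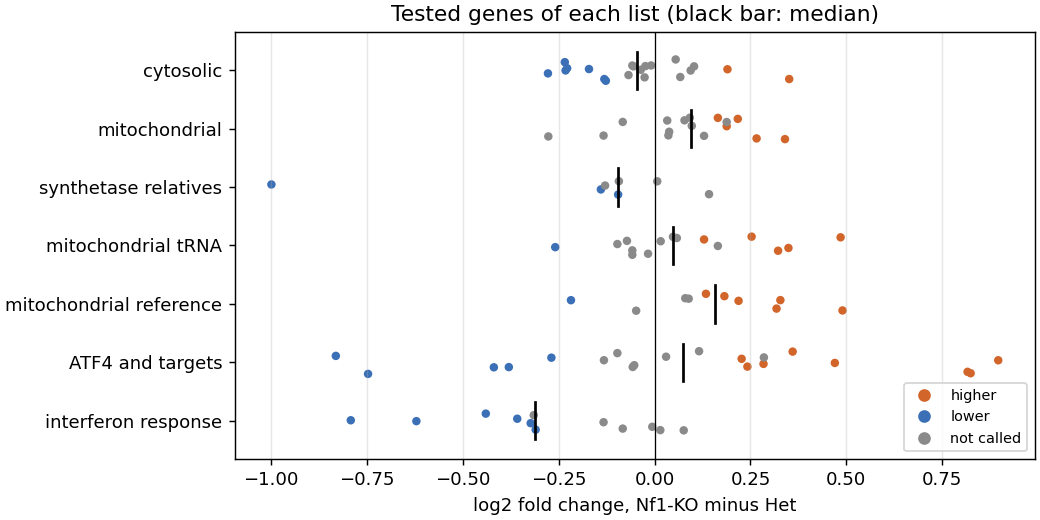
Log2 difference between Nf1-KO and Het of the tested genes of 7 lists, 1 point per gene, orange for called higher, blue for called lower and grey for not called; the black bar is the median of the list. Synthetases of both compartments lie between -0.28 and 0.35, while Aimp2 among the relatives lies at -0.999 and the Atf4 list runs from -0.83 to 0.90.

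In the authors' deposited table, 8 of the 36 members were called at an adjusted p under 0.05, against 31.6% of the 13985 genes listed there (15.0% higher and 16.6% lower). The 3 called higher were Eprs, Kars and Fars2, and the 5 called lower were Aars, Hars, Mars, Sars and Yars. All 8 were also called here in the same direction, and all 36 had the same sign in both. The table was made from the same 4 libraries. In its units, depth ranged from a mean normalized count of 187.1 (Pars2, a counting error of 7.31%) to 13657 (Eprs, 0.856%) among the members other than Lars2. Counting error leaves out the spread between libraries.

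By position, 9 of the 36 members (25.0%) have a gene on the other strand whose start lies within 1000 bases of their own, against 1605 of 9739 tested protein-coding genes (16.5%). This was not tested. Hars and Hars2 are the pair of members arranged that way.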

How the data were processed

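RNA from the TA muscle was made into TruSeq libraries, per the labels' protocols. STAR 2.4.2a, DESeq2 and build mm9 are named in the submitters' processing notes without a role, and the counter, annotation and strand use are not given in the sources used here. The authors deposited 1 value per gene and library without naming the unit. It was read as RPKM because the deposited mean count divided by the value rose with transcript length (log-log slope 0.953 over 4554 genes). The RPKM values deposited by the authors summed to 532315 to 547144 per library, so total read depth is unknown, and counting error was taken from the deposited mean counts. The authors' comparison table holds a signal (mean normalized count), a log2 fold change with its standard error, a score (their ratio), and p-values before and after adjustment, per the file headers; its design is not given in the sources used here.

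Each file had 34682 rows, 15497 of them (44.7%) at 0 in all libraries; 33 rows named by a number were left out, and of repeated names the copy with the highest mean was kept. To scale the libraries, log ratios to their average were trimmed (30% by ratio and 5% by abundance, both tails) and averaged without weights. The test was limma 3.58.1 (R 4.3.3) with a trended variance, on log2(RPKM + 1) of the 10690 genes that reached 0.5 RPKM in 2 or more libraries. The fit was also run on simulated data with independent noise and few changed genes. That setting is unlike these libraries, so the run does not measure their error rate. With 2 libraries against 2, an exact permutation test cannot go below p = 0.333, so calls rest on the spread that limma shares across genes, and that spread, as a median coefficient of variation over 4826 genes of 5 RPKM or more, came to 2.03% (Het) and 1.91% (Nf1-KO).

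Gene positions and shared 31-base runs came from GENCODE M21 (GRCm38) and promoters from RefSeq (GRCm38.p6), and neither is the build mm9. Named genes were every member, 7 related genes, Nf1, and of each other list the 4 called genes with the largest change, of which a part is printed; Atf4, Ddit3, Eif2ak1, Exosc6, Acta1 and Rn45s were added as the list's factor, overlapping genes, a tissue check and a row examined after values were seen. One related gene and one sequence are not reported here. Members and lists were chosen with earlier results of these data known. Alternatives were other pseudocounts, filters, scaling, variance trend and treatment of copies, a replicate block, and leaving out each library.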

Additional observations from a re-analysis of the deposited data

How the results depend on the processing

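Over 11 other settings, 395 values of members were recomputed: 347 kept their direction and their side of the threshold, 26 lost the call, 12 gained one and 10 changed sign, 0 of these for a called member. Of the 14 called members, 8 stayed called in every setting (Eprs, Mars, Kars, Yars, Aars, Sars, Cars2 and Fars2). With values not scaled, cytosolic genes gave 6 higher and 4 lower with a median of 0.036, and mitochondrial genes 9 higher; the log2 differences of Iars (0.017), Rars (0.074), Cars (0.023), Wars (0.059), Farsa (0.014), Gars (0.05) and Nars (0.061) changed sign. Without a filter 4 cytosolic genes were lower. Leaving out 1 library at a time gave 2 to 3 cytosolic genes higher, 4 to 6 lower, 3 to 4 mitochondrial genes higher and 0 to 1 lower, and medians of -0.06 to -0.018 (cytosolic) and 0.072 to 0.137 (mitochondrial). The same fits gave log2 differences of -0.05 to 0.004 for Wars, -0.004 to 0.071 for Iars2, -0.028 to 0.102 for Sars2, -0.008 to 0.024 for Aarsd1, -0.189 to 0.004 for Prorsd1 and -0.522 to -0.034 for Lars2. Ears2 had no value at 1 RPKM in every library. The cause of these changes was not tested. A group left with 1 library was assumed to vary like the other.

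Libraries with the same replicate number were not found to be paired (r = 0.046 between the deviations of same-numbered libraries over 4827 genes). A replicate block gave 2656 genes higher and 2590 lower over all genes, 2 and 6 among cytosolic members and 4 higher among mitochondrial members. Under the block Vars (limma adjusted p = 0.059) and Mars2 (0.052) were not called, and Eef1e1 was (0.039). Without the block they stood at 0.045, 0.046 and 0.19.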
